A study of Mus musculus with 18 samples.

Results

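The beta-crystallin family of the mouse lens was followed as the 6 genes *Cryba1*, *Cryba2*, *Cryba4*, *Crybb1*, *Crybb2* and *Crybb3*, chosen by their symbols in the count table, out of 40800 Ensembl genes counted in 18 RNA-seq libraries. All 6 passed the filter on low counts, which kept 13938 genes. Each library was made from several whole lenses of C57BL/6J mice, combined before poly-A selection, and each of the 6 groups had 3 libraries. In the *Cryaa*-R49C line the lenses came from mice of 2 days of age that were wild-type (*Cryaa*-WT), carried the knock-in αA-crystallin R49C allele on one chromosome (*Cryaa*-R49C-het) or carried it on both (*Cryaa*-R49C-homo). In the *Cryab*-R120G line they came from mice of 14 days of age, with the knock-in αB-crystallin R120G allele absent (*Cryab*-WT), on one chromosome (*Cryab*-R120G-het) or on both (*Cryab*-R120G-homo). The knock-in alleles are point changes in the genes' own positions, so counts per gene did not check the genotype labels. The genotype field of the 6 *Cryab*-R120G-het and -homo libraries names the *Cryaa*-R49C line, against their titles, which were followed here. Line, age and any difference in preparation between the lines changed together and cannot be told apart.

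Beta-crystallins are structural proteins of the lens fibre cell, folded into Greek key motifs that they share with the gamma-crystallins. The Cryba genes encode the acidic subunits and the Crybb genes the basic subunits, and the subunits associate with each other into dimers and larger oligomers. Lens fibre cells synthesise them in very large amounts and then lose their nuclei, so the proteins have to stay soluble for life. Inherited changes in several of these genes cause cataract.

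The family lay in 3 places of the GRCm38 genome. *Cryba1* was annotated at chr11:77718615-77725283 and *Cryba2* at chr1:74889934-74893143, both on the minus strand. The other members lay on chromosome 5 as neighbouring pairs. *Cryba4* (chr5:112246493-112252518, minus strand) and *Crybb1* (chr5:112255815-112269585, plus strand) pointed away from each other with starts 3297 bases apart. *Crybb2* (chr5:113058258-113070117) and *Crybb3* (chr5:113075839-113081584) lay on the minus strand with starts 11467 bases apart. The coding sequences, read from the GENCODE transcripts as the longest open reading frame, had 591 to 753 bases and shared 60.5% to 69.7% of their aligned bases between members. No stretch of 50 bases, the read length, in any member's transcripts occurred in a transcript of another gene, and no exon of a member overlapped an exon of another gene on either strand. The counts of the members were therefore not split between near-identical copies.

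The starts of 4 members are shown because *Cryba1* and *Crybb1* were the most abundant members per kilobase of exon, *Crybb2* differed most between the ages and *Crybb3* took a different share of the family in the *Cryaa*-R49C-homo lenses. Each sequence is the RefSeq window (GRCm38.p6) from 250 bases before the annotated start to 50 bases after it, 5′ to 3′. The windows are at chr11:77725244-77725543 on the minus strand, chr5:112255570-112255869 on the plus strand, chr5:113081535-113081834 on the minus strand, and chr5:113070068-113070367 on the minus strand. Capitals mark TATAAA, the core of the TATA box, and TGCTGA, which is part of the sequence bound by MAF family factors, or TCAGCA, the same letters on the opposite strand.
Cryba1: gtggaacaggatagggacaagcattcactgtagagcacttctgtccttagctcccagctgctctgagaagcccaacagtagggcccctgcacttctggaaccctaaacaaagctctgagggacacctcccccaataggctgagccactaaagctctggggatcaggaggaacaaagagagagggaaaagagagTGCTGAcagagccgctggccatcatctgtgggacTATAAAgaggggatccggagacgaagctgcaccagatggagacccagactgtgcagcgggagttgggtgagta
Crybb1: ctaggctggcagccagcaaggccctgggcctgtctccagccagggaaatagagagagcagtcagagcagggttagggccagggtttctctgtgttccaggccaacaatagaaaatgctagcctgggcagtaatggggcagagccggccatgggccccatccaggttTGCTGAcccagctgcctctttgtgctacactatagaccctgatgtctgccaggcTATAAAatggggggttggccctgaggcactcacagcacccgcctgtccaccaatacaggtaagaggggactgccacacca
Crybb3: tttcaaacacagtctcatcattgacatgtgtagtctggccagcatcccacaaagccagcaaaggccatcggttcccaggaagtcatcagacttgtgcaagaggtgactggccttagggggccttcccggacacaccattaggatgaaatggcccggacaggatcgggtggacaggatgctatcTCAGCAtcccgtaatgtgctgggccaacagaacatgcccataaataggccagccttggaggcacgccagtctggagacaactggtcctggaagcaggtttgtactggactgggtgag
Crybb2: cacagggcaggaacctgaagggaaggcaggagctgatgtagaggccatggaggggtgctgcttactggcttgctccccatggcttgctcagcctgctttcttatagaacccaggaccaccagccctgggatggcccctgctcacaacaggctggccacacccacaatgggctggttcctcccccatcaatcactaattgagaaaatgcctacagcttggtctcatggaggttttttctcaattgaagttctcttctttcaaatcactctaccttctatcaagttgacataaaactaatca
Both motifs were searched on both strands of the windows, and they do not overlap each other. TATAAA stood in the windows of 3 of the 6 members, against 13.6% of all 32851 RefSeq windows of the same length, and TGCTGA stood in 5 of the 6, against 19.5%. These counts take a match at any position in the window. In *Cryba1* TGCTGA and TATAAA began 57 and 23 bases before the start, and in *Crybb1* 84 and 30 bases before it. In *Cryba2*, whose window is not shown, TATAAA began only 3 bases before the start. The *Crybb3* window held TGCTGA on the opposite strand, 67 bases before the start. The *Crybb2* window held neither motif, but GENCODE gives 5 different starts for *Crybb2* transcripts, and the window covers the RefSeq start alone. A match of letters is a description of the window and not a bound site.

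The libraries held between 14272174 and 29639719 counts. A single non-coding gene, *Gm42418*, took between 2.53% and 42.6% of them, and that share moved the share of every other gene. *Cryaa*-R49C-homo replicate 1 stood apart from replicates 2 and 3, with a chi-square of the counts per gene of 577 and 978, while no other pair of libraries of a group had more than 307. In replicate 1 *Gm42418* held 2.53% of the counts and *Cryba1* 14.7%, in replicate 2 the values were 24.5% and 6.30%, and in replicate 3 they were 42.6% and 2.95%. The tests of the 6 members on this group are therefore given with and without replicate 1, and those of other genes in part. Of 11 lens fibre genes outside the crystallin families, 10 were detected in every group and *Lim2* was listed at 0 in all 18 libraries. The photoreceptor genes summed to at most 1225 TMM-scaled CPM in any library, against at least 60525 for the beta-crystallins. CPM are counts scaled to a common library total, and TMM scaling rescales them so that the typical gene keeps its level between libraries. All CPM values given here, with the marker sums below, are TMM-scaled, so they differ from shares of all counts.

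The 6 members together made up between 10.4% and 31.5% of all counts of a library. In *Cryaa*-WT lenses the share was 21.0%, 20.7% and 22.4% in the 3 libraries. In *Cryaa*-R49C-het lenses it was 23.9%, 28.5% and 27.1%, above every *Cryaa*-WT library. In *Cryaa*-R49C-homo lenses it was 30.8%, 16.0% and 10.4%, which spanned a wider range than all other libraries together. The *Gm42418* share ran the other way, at 27.8%, 30.1% and 20.01% in *Cryaa*-WT, 17.97%, 12.6% and 11.9% in *Cryaa*-R49C-het, and the values given above in *Cryaa*-R49C-homo. With *Gm42418* left out of the total, the family held 28.1% to 29.6% in *Cryaa*-WT and 29.2% to 32.6% in *Cryaa*-R49C-het, and these ranges overlapped. The *Cryaa*-R49C-homo values became 31.6%, 21.2% and 18.1%, so replicates 2 and 3 stayed below every *Cryaa*-WT library and replicate 1 lay above them.

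At 14 days the share of all counts was 24.2%, 27.5% and 25.2% in *Cryab*-WT, 24.9%, 26.3% and 29.1% in *Cryab*-R120G-het, and 29.2%, 31.5% and 24.3% in *Cryab*-R120G-homo. Without *Gm42418* all 9 libraries lay between 30.9% and 34.3%. Among crystallin counts alone, the beta family held 45.0% ± 0.760 (SD, n = 3) in *Cryaa*-WT and 38.9% ± 0.277 (SD, n = 3) in *Cryab*-WT, and the ranges of the 2 ages did not overlap. The gamma-crystallins, their relatives with the same fold, moved from 11.9% ± 0.321 to 24.0% ± 1.39 of all counts (SD, n = 3 each).

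**Figure D1:**
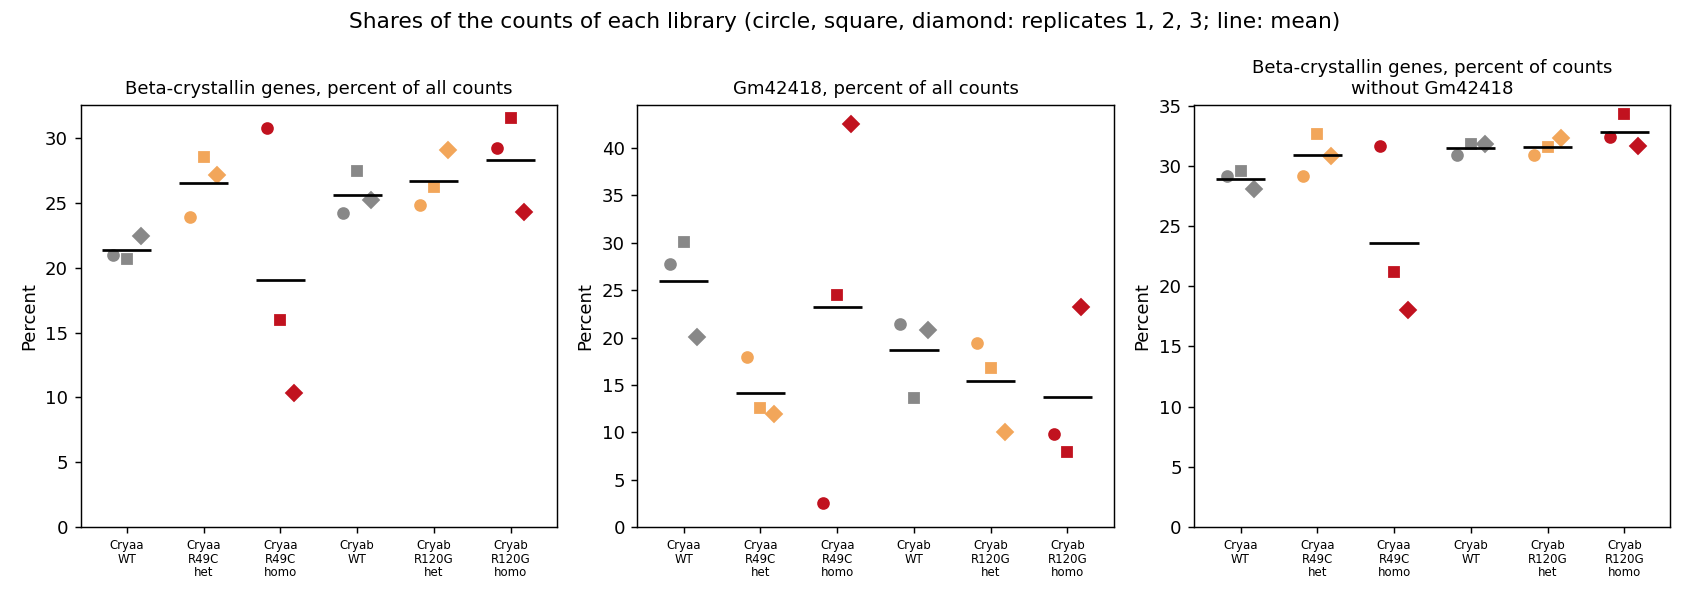
Percent of the counts of each library held by the 6 beta-crystallin genes, by *Gm42418*, and by the beta-crystallin genes with *Gm42418* left out of the total, for the 6 groups (points: libraries, lines: means of 3). The *Cryaa*-R49C-homo libraries span 10.4% to 30.8% of all counts for the family and 2.53% to 42.6% for *Gm42418*, while the libraries of the other groups lie between 28.1% and 34.3% in the panel without *Gm42418*.

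Within the family the members were far from equal. Levels were compared between genes as TMM-scaled CPM per kilobase of exon. In *Cryaa*-WT lenses *Cryba1* had 44409 ± 8318 CPM per kilobase and *Crybb1* 34526 ± 8119. Their ranges overlapped between libraries, but within each of the 3 libraries *Cryba1* was 1.25 to 1.39 times higher. *Cryba4* followed with 15273 ± 3711, *Crybb3* with 9371 ± 2276 and *Cryba2* with 4222 ± 1160 (SD, n = 3 each). Within each library *Cryba4* was 1.6 to 1.67 times higher than *Crybb3*. *Crybb2* was the lowest member at 2 days with 1643 ± 338 (SD, n = 3). In *Cryab*-WT lenses of 14 days *Cryba1* was still first with 146053 ± 8262 and *Crybb1* next with 70184 ± 6291, and their ranges did not overlap. *Crybb2* was now in the third place with 44998 ± 3049, followed by *Cryba4* with 41681 ± 1907, *Crybb3* with 25690 ± 1471 and *Cryba2* with 12441 ± 658 (SD, n = 3 each). The ranges of *Crybb2* (42548 to 48412) and *Cryba4* (39681 to 43480) overlapped, and *Crybb2* was the higher of the pair in 2 of 3 libraries, so their order was not separated. The exon length of *Crybb3* joins 11 annotated transcripts and that of *Crybb2* joins 5, so their levels per kilobase are lower than for any single short transcript. *Crybb2* was divided by 2012 bases (618 coding) and *Crybb1* by 985 (753 coding). *Crybb3* was divided by 2333 (636 coding) and *Cryba4* by 838 (591 coding). Without division *Crybb2* lay above *Crybb1* in *Cryab*-WT (mean CPM 90553 and 69144). *Crybb3* lay above *Cryba4* in *Cryaa*-WT (21868 and 12801). The order and ratios of these members therefore depend on the length used.

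*Crybb2* was the member that set the 2 ages apart. Its level was 3701, 3697 and 2522 TMM-scaled CPM in the 3 *Cryaa*-WT libraries and 85622, 88614 and 97423 in the 3 *Cryab*-WT libraries. The lowest library of 14 days lay far above the highest of 2 days. The difference between the WT groups was 4.78 on the log2 scale (SE 0.31, 27.4-fold, FDR = 5.94e-10, edgeR quasi-likelihood test with Benjamini-Hochberg adjustment over 13938 genes). As a share of all counts, which is scaling by library size and moves with *Gm42418*, *Crybb2* went from 0.489%, 0.445% and 0.505% to 4.26%, 4.83% and 4.76%, a 9.63-fold change in the mean. As a share of the beta-crystallin counts it went from between 2.15% and 2.32% to between 17.6% and 18.9%. This was the only member that passed the threshold in the same direction with TMM scaling and with library size alone, where its log2 difference was 3.27.

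The other 5 members were also higher in *Cryab*-WT than in *Cryaa*-WT lenses with TMM scaling, so that 6 of 6 passed the threshold upward, against 11.7% of all genes tested. *Cryba1*, the most abundant member, went from 74098, 82102 and 56201 CPM to 218954, 234450 and 245152 CPM, a log2 difference of 1.72 (SE 0.35, FDR = 0.00127, edgeR). *Cryba2* had 1.56 (SE 0.26, FDR = 0.000146), *Cryba4* 1.45 (SE 0.27, FDR = 0.000597) and *Crybb3* 1.45 (SE 0.27, FDR = 0.000597) on the same scale. *Crybb1* had the lowest value, 1.02 (SE 0.27, FDR = 0.00817). In all 6 the libraries of the 2 ages did not overlap, with the later age higher, which was so for 20.2% of all genes, and the median member was at 1.51 against -0.07 for all genes. No library left out changed any of these 6 calls.

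The direction for these 5 members depended on the scaling. With library size alone the median log2 difference of all genes moved to -1.61, 11436 genes passed downward and 157 upward, and the members other than *Crybb2* lay between -0.47 and 0.21 with none past the threshold. Their shares of all counts told the same: *Cryba1* held 9.78% to 11.2% in *Cryaa*-WT and 10.9% to 12.8% in *Cryab*-WT, and *Cryba4* 1.76% to 1.93% and 1.71% to 1.82%. *Crybb1* held 4.85% to 5.01% in *Cryaa*-WT and 3.07% to 3.78% in *Cryab*-WT, without overlap. Within the family *Crybb1* took 22.3% to 23.4% of the counts at 2 days and 12.2% to 15.5% at 14 days, *Crybb3* 14.1% to 15.3% and 11.6% to 12.6%, *Cryba4* 8.21% to 9.16% and 6.60% to 7.49%, and *Cryba2* 3.07% to 3.64% and 2.90% to 3.03%. *Cryba1* overlapped between the ages. The shares sum to 100%, so the larger share of *Crybb2* lowers those of the others. These within-family shares do not depend on scaling between libraries. Measured against *Cryba1* in the same library, the log2 ratio of *Crybb2* moved from -4.42 ± 0.09 to -1.36 ± 0.04 (SD, n = 3 each), that of *Crybb1* from -1.07 ± 0.09 to -1.75 ± 0.21, that of *Cryba4* from -2.48 ± 0.13 to -2.74 ± 0.13, and that of *Crybb3* from -1.71 ± 0.12 to -1.96 ± 0.07.

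Between these WT groups 7 of 10 tested lens fibre genes outside the crystallins passed upward, and their summed level rose from 3243 to 5249 CPM across the *Cryaa*-WT libraries to 14104 to 16565 CPM across the *Cryab*-WT libraries. With library size alone 4 passed upward and 2 downward. Of all genes, 11.7% passed upward and 11.5% downward, and with library size alone 1.13% and 82%. In whole lenses, fewer cells of a type and less RNA per cell cannot be told apart. All 6 macrophage genes passed downward, from 6.04 to 14.1 CPM in sum to 0.333 to 2.20 CPM, and 5 of 8 photoreceptor genes passed upward, to 22.3 to 819 CPM in sum. Of the 6 pigment and ciliary epithelium genes 5 passed downward, from 17.2 to 30.9 CPM in sum to 3.19 to 4.33 CPM, and of the 6 vessel and mesenchyme genes 4 did so, from 18.3 to 33.5 CPM to 8.07 to 11.01 CPM. The part of these markers in the result was not tested.

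**Figure D2:**
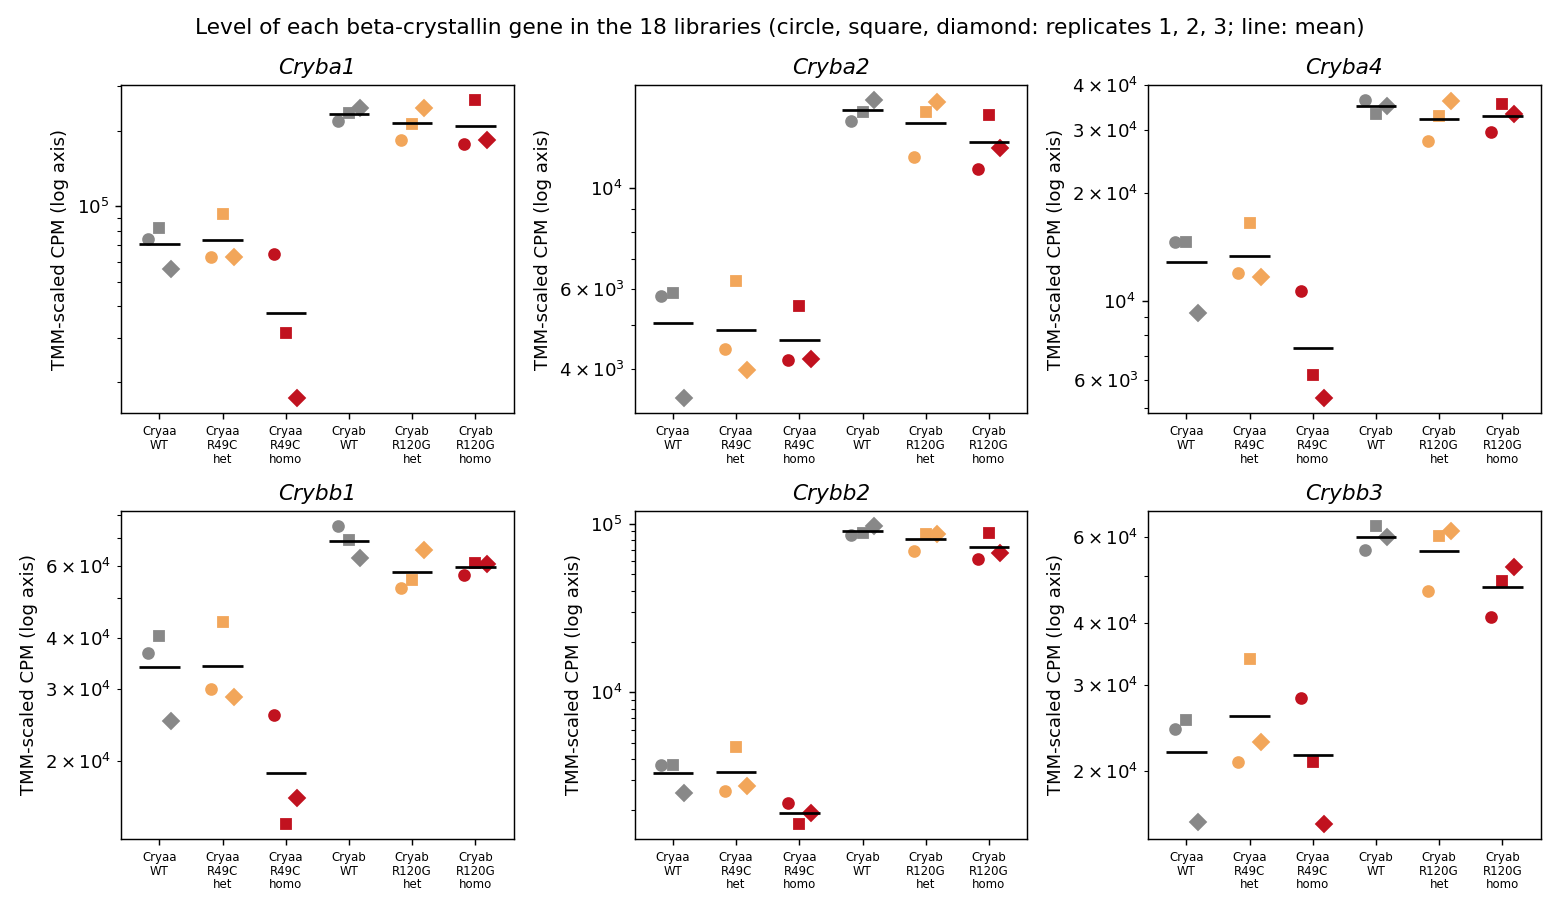
TMM-scaled CPM of each beta-crystallin gene in the 18 libraries on a log axis (points: libraries by replicate number, lines: means of 3). *Crybb2* has the widest gap between the lines, from 2522 to 3701 in *Cryaa*-WT and from 85622 to 97423 in *Cryab*-WT, and the *Cryaa*-R49C-homo libraries of *Cryba1* lie between 17221 and 64922.

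In lenses with 1 copy of the R49C allele, no beta-crystallin gene passed the threshold against *Cryaa*-WT, where 0.00717% of all genes did so (edgeR; at an unadjusted p under 0.05, 0 of the 6 members and 708 of 13938 genes). DESeq2 and edgeR's likelihood-ratio test also called none of the 6. The het and WT libraries overlapped for all 6 members, while they did not for 21.9% of all genes. The log2 differences lay between -0.05 for *Cryba2* and 0.24 for *Crybb3*. The 95% intervals ran from -0.66 to 0.76 for *Cryba1*, the widest, and from -0.56 to 0.47 for *Cryba2*, the narrowest, so a change of 1.5 times in either direction lay inside them for *Cryba1*.

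In *Cryaa*-R49C-homo lenses, 4 members had lower fitted levels than in *Cryaa*-WT and *Cryba2* and *Crybb3* stood near the WT level. *Crybb1*, a basic subunit with long terminal extensions, was the member past the threshold. It had 36709, 40318 and 25016 CPM in the *Cryaa*-WT libraries and 25924, 13996 and 16246 CPM in the *Cryaa*-R49C-homo libraries. Replicate 1 of the homo group overlapped the lowest WT library, and replicates 2 and 3 lay below all of them. *Crybb1* fell by 0.86 on the log2 scale (SE 0.27, FDR = 0.0429, edgeR), so 1 of 6 members passed, against 4.92% of all genes tested that passed downward.

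*Cryba1* had 64922, 31345 and 17221 CPM in the 3 homo libraries, the widest spread of any member, and its log2 difference from WT was -0.90 (SE 0.35, FDR = 0.104, edgeR). *Cryba4*, an acidic subunit encoded beside *Crybb1*, went from 14593, 14600 and 9210 CPM in WT to 10599, 6204 and 5320 CPM in homo, a difference of -0.80 (SE 0.27, FDR = 0.063). *Crybb2* went from 3701, 3697 and 2522 CPM to 2206, 1651 and 1935 CPM, a difference of -0.78 (SE 0.26, FDR = 0.0661). *Crybb2* was the one member whose homo libraries all lay below the WT libraries, which was so for 12.6% of all genes. None of these 3 passed the threshold.

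*Cryba2* and *Crybb3* had other values. *Cryba2* had 5789, 5884 and 3440 CPM in WT and 4190, 5487 and 4198 CPM in homo, a log2 difference of -0.12 (SE 0.25, 95% interval -0.64 to 0.39, FDR = 0.817). *Crybb3* had 24351, 25481 and 15771 CPM in WT and 28219, 20861 and 15605 CPM in homo, a difference of -0.02 (SE 0.27, 95% interval -0.58 to 0.54, FDR = 0.976). The homo libraries of both genes overlapped the WT libraries.

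Without homo replicate 1, 4 members passed downward: *Cryba1* at -1.54 (FDR = 0.000732), *Cryba4* at -1.15 (FDR = 0.00169), *Crybb1* at -1.17 (FDR = 0.00202) and *Crybb2* at -0.88 (FDR = 0.0253, edgeR). In that fit 12.6% of all genes passed downward, against 4.92% with all libraries. Without WT replicate 3 there were 3 members past the threshold, beside 4.08% of all genes downward. Without any one of WT replicates 1 and 2 or homo replicates 2 and 3 there was none, beside 2.93% to 3.62% of all genes downward. The fitted value of *Crybb1* ran from -1.17 to -0.69 over all 6 fits that left out a library. With library size alone none passed, beside 1.82% of all genes downward, and the fitted values of *Cryba2* and *Crybb3* turned to 0.36 and 0.49. DESeq2 called 4 members (*Cryba1*, *Cryba4*, *Crybb1* and *Crybb2*), beside 6.11% of all genes downward.

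Against *Cryaa*-R49C-het lenses the picture was alike, although the 2 comparisons share the homo libraries. *Crybb1* fell by 0.87 (SE 0.27, FDR = 0.0467, edgeR), so 1 of 6 members passed, against 3.63% of all genes that passed downward. The het libraries of *Crybb1* had 29909, 43713 and 28710 CPM, all above the homo libraries. *Cryba4* had a difference of -0.86 (FDR = 0.0508), *Crybb2* -0.81 (FDR = 0.0623) and *Cryba1* -0.95 (FDR = 0.0936), and *Cryba2* and *Crybb3* had -0.08 and -0.27. The het and homo libraries of *Cryba4*, *Crybb1* and *Crybb2* did not overlap, with homo lower, against 10.5% of all genes. Without homo replicate 1 the same 4 members as against WT passed, beside 15.7% of all genes downward. With any other het or homo library left out no member passed, beside 1.74% to 2.28% of all genes.

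The make-up of the family differed within the *Cryaa*-R49C-homo libraries, on a measure that no scaling between libraries touches. *Crybb3* took 20.7%, 26.2% and 25.8% of the beta-crystallin counts in the 3 homo libraries, 15.7%, 17.1% and 17.2% in het and 15.3%, 14.8% and 14.1% in WT. The 3 genotypes did not overlap, with replicate 1 of the homo group between the het libraries and the other homo libraries. An exact permutation test of 3 libraries against 3 cannot give a two-sided p below 0.1. *Crybb3* was the one member of 6 whose share separated homo from WT. *Cryba1* took 47.7%, 39.4% and 28.5% in homo against 46.5% to 50.1% in WT, and *Cryba2* 3.08%, 6.90% and 6.94% against 3.07% to 3.64%, so for both genes replicate 1 stood with the WT libraries. The log2 ratio of *Crybb3* to *Cryba1* was -1.71 ± 0.12 in WT, -1.51 ± 0.08 in het and -0.64 ± 0.53 in homo (SD, n = 3 each).

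**Figure D3:**
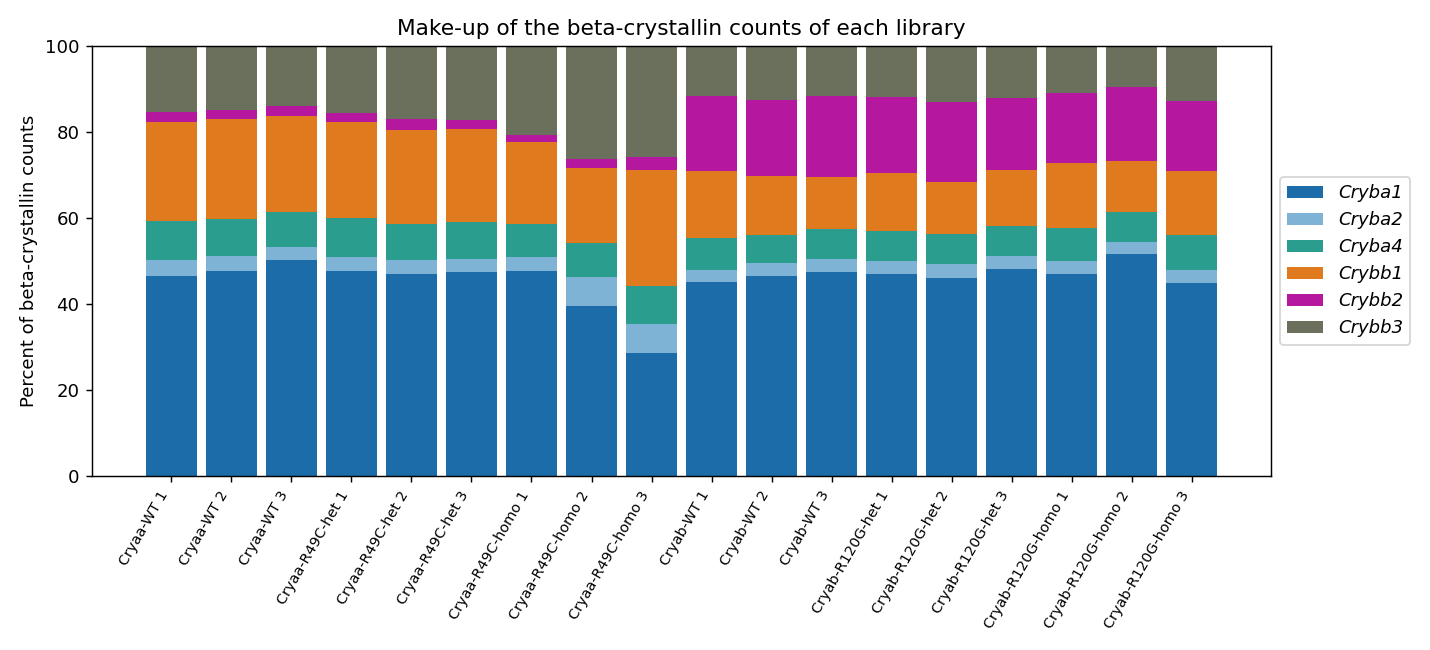
Percent of the beta-crystallin counts of each library taken by each member, in 18 stacked bars that each sum to 100%. *Crybb2* takes 1.62% to 3.20% in the 9 libraries of 2 days and 16.3% to 18.9% in the 9 of 14 days, and *Crybb3* takes 20.7% to 26.2% in the *Cryaa*-R49C-homo libraries.

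Other lens genes moved in the *Cryaa*-R49C-homo libraries as well. Against WT, 4.87% of all genes passed upward and 4.92% downward. These shares were 13.5% and 1.82% with library size alone, and 9.55% and 12.6% without homo replicate 1. Of 10 tested fibre genes outside the crystallins, 7 passed downward (5 with library size alone and 8 without homo replicate 1), and their summed level was 3243 to 5249 CPM in WT and 1214 to 1864 CPM in homo. They included *Lctl* at -3.82 (FDR = 9.4e-09) and the beaded filament gene *Bfsp1* at -2.23 (FDR = 0.000158, edgeR). The 4 lens epithelium genes summed to 36.5 to 49.3 CPM in WT and 13.4 to 19.5 CPM in homo, with 1 past the threshold downward, with and without replicate 1. The 6 macrophage genes summed to 6.04 to 14.1 CPM in WT and 14.5 to 30.7 CPM in homo, with 2 past the threshold upward (4 with library size alone and 5 without homo replicate 1). The 6 pigment and ciliary epithelium genes summed to 17.2 to 30.9 CPM in WT and 5.43 to 13.1 CPM in homo, with 2 past the threshold downward (0 with library size alone and 4 without homo replicate 1). The 6 vessel and mesenchyme genes summed to 18.3 to 33.5 CPM in WT and 18.9 to 63.2 CPM in homo, with 1 past it upward (3 with library size alone and 3 without homo replicate 1). The part of these markers in the lower beta-crystallin values was not tested.

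In the *Cryab*-R120G line no member passed the threshold in any comparison. For *Cryab*-R120G-het against *Cryab*-WT, 0.00717% of all genes passed (edgeR; 0 members and 532 genes at an unadjusted p under 0.05). The member differences lay between -0.26 for *Crybb1* and -0.09 for *Cryba2*, with a median of -0.12. For *Cryab*-R120G-homo against *Cryab*-WT, 0.0502% of all genes passed (0 members and 851 genes at an unadjusted p under 0.05), and the median member was at -0.23. With the replicate number as a block, a pairing that the labels do not give, 0.847% of all genes passed and again no member did, with FDRs of 0.265 (*Crybb3*) to 0.935 (*Cryba4*). For homo against het 0% of all genes passed (0 members and 273 genes at an unadjusted p under 0.05). DESeq2 and the likelihood-ratio test called none of the 6 in these comparisons.

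*Crybb3* and *Crybb2* had the lowest fitted values in the *Cryab*-R120G-homo lenses. *Crybb3* had 56423, 63283 and 60129 CPM in *Cryab*-WT and 41172, 48909 and 52196 CPM in *Cryab*-R120G-homo, a log2 difference of -0.34 (SE 0.27, 95% interval -0.89 to 0.22, FDR = 0.944, edgeR). *Crybb2* had 85622, 88614 and 97423 CPM in WT and 61743, 88617 and 67324 CPM in homo, a difference of -0.32 (SE 0.26, 95% interval -0.87 to 0.23, FDR = 0.944). The homo libraries of *Crybb3* and of *Crybb1* lay below all WT libraries, 2 of 6 members, against 4.49% of all genes. With library size alone all 6 fitted values turned to between 0.01 and 0.27, while the median of all genes stood at 0.37. Within the family, *Crybb2* took 16.3%, 17.2% and 16.4% of the counts in the *Cryab*-R120G-homo libraries, below the 17.6% to 18.9% of *Cryab*-WT. Other shares lay above WT without overlap. *Cryba4* held 1.97% to 2.29% of all counts in homo and 1.71% to 1.82% in WT. The family held 40.3% to 41.4% of the crystallin counts in homo and 38.6% to 39.2% in WT. The intervals of the 6 members did not reach a loss or gain of 1 on the log2 scale.

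**Figure D4:**
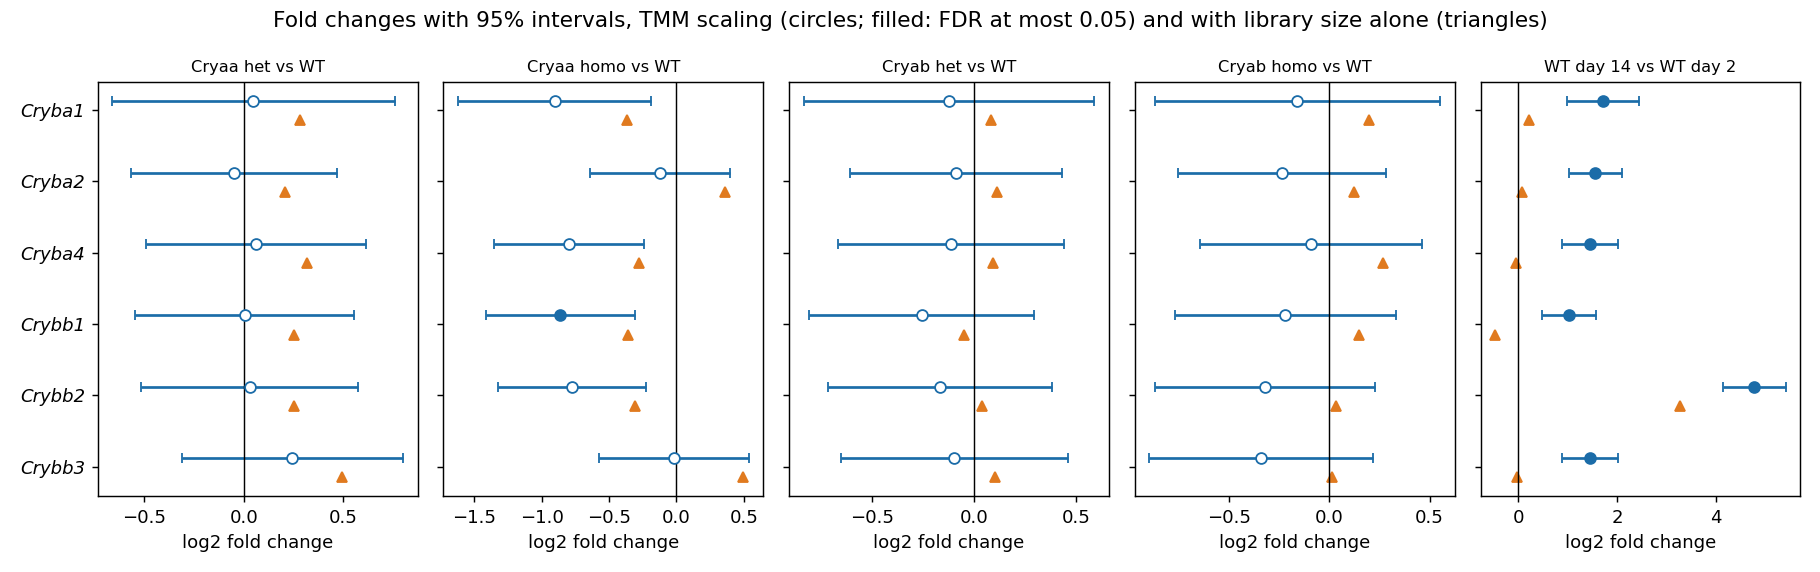
Log2 differences of the 6 members in 5 comparisons, with 95% intervals from the edgeR model with TMM scaling (circles, filled where the FDR was at most 0.05) and with library size alone (triangles). Filled circles stand at *Crybb1* in *Cryaa* homo against WT and at all 6 members in WT of 14 days against WT of 2 days, where the triangles of 5 members lie between -0.47 and 0.21.

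The homo effect of the *Cryaa*-R49C line minus that of the *Cryab*-R120G line was tested directly. It ran from -0.75 for *Cryba1* (95% interval -1.75 to 0.26) to 0.32 for *Crybb3* (95% interval -0.47 to 1.10), and none of the 6 members passed, against 2.91% of all genes (edgeR; 0 members and 2142 genes at an unadjusted p under 0.05). Without *Cryaa*-R49C-homo replicate 1, *Cryba1* at -1.39 (FDR = 0.0212) and *Cryba4* at -1.06 (FDR = 0.0334) passed downward, beside 8.05% of all genes. With all 18 libraries the homo effects on the 6 members were thus not separated between the lines.

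The other crystallins were followed beside the family. In *Cryaa*-R49C-homo against *Cryaa*-WT, 3 of 8 gamma-crystallin genes passed downward, with *Crygb* at -1.57 (FDR = 0.000766), *Crygc* at -0.95 (FDR = 0.0265) and *Crygs* at -0.94 (FDR = 0.0431, edgeR). *Crygb* alone passed with library size in place of TMM. Of all genes, 4.92% passed downward with TMM, 1.82% with library size alone and 12.6% without homo replicate 1. The alpha-crystallin genes, whose products act as chaperones of the lens, did not pass: *Cryaa* itself was at -0.76 (FDR = 0.15) and *Cryab* at -0.33 (FDR = 0.489). Without homo replicate 1, *Cryaa* passed at -1.39 (FDR = 0.000725), *Crygn* passed at -0.81 (FDR = 0.0295) and *Crygs* no longer did (FDR = 0.0562). Between the WT groups both alpha-crystallin genes and 7 of 8 gamma-crystallin genes passed upward with TMM scaling, against 11.7% of all genes. *Crygs*, at 3.92 (FDR = 2.99e-08), had the highest value among them, and *Crygn* at 0.57 (FDR = 0.115) did not pass. With library size alone *Cryab*, *Crygs*, *Crygc*, *Crygb* and *Crygd* passed upward and *Crygn* downward, beside 1.13% of all genes upward and 82% downward. Of the 50-base stretches of *Cryga* to *Crygf*, 19.7% to 48.3% also occurred in other genes, so their counts are uncertain, unlike those of the beta family. No alpha- or gamma-crystallin gene passed in the *Cryab*-R120G line, where *Cryaa* was at -0.11 in het and -0.20 in homo and *Cryab* at -0.20 and -0.32.

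Of 12 transcription factor genes of lens and crystallin expression, 11 were tested. In *Cryaa*-R49C-homo against WT, *Gata3*, a factor of fibre differentiation, rose by 1.39 (FDR = 0.0011), *Pitx3* rose by 1.16 (FDR = 0.0297) and *Hsf4*, a heat shock factor of the lens, fell by 0.74 (FDR = 0.0333, edgeR). *Hsf4* was at -0.27 (FDR = 0.367) with library size alone, while *Gata3* and *Pitx3* passed there too. Of all genes, 4.87% passed upward and 4.92% downward. These shares were 13.5% and 1.82% with library size alone, and 9.55% and 12.6% without homo replicate 1. Without homo replicate 1, *Gata3* at 1.46 (FDR = 0.000336), *Pitx3* at 1.46 (FDR = 0.00163) and *Hsf4* at -0.75 (FDR = 0.0152) passed. *Sox2*, outside the naming rule and named after its values were seen, had 0.61 (FDR = 0.161) with all libraries, but passed without homo replicate 1 at 0.93 (FDR = 0.00243) and with library size alone at 0.99 (FDR = 0.0208). Against het, *Gata3* at 1.02 (FDR = 0.0159) and *Pitx3* at 1.07 (FDR = 0.0487) passed, beside 4.69% of all genes upward. Without homo replicate 1 they had 1.09 (FDR = 0.00318) and 1.37 (FDR = 0.00205), and *Sox2* passed too at 1.10 (FDR = 0.000418), beside 13.8% of all genes upward. None of the 11 passed in the *Cryab*-R120G line. In the test of one line against the other, the homo effect on *Gata3* was larger in the *Cryaa*-R49C line by 1.59 (FDR = 0.0231), beside 1.16% of all genes in that direction. Without homo replicate 1 it was larger for *Gata3* by 1.67 (FDR = 0.00522), for *Pitx3* by 2.05 (FDR = 0.00328) and for *Sox2* by 1.27 (FDR = 0.00515), beside 4.97% of all genes. Between the WT groups *Hsf4* was higher at 14 days by 1.12 (FDR = 0.000854) and *Six3* and *Pax6* were lower, at -0.78 (FDR = 0.0096) and -0.69 (FDR = 0.0125). There 11.7% of all genes passed upward and 11.5% downward. With library size alone *Hsf4* turned to -0.37 (FDR = 0.0787), and 10 of the 11 factors passed downward, as did 82% of all genes.

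The members varied together from library to library. With the mean of each group removed, the correlations of log2 CPM over the 18 libraries ran from 0.43 for *Cryba1* with *Cryba2* to 0.93 for *Cryba4* with *Crybb3*. The neighbours *Cryba4* and *Crybb1* had 0.92 and the neighbours *Crybb2* and *Crybb3* had 0.78. The points share their library, its scaling and its *Gm42418* share, and the values are descriptions. Among 12422 other genes with a mean count of at least 10, those most like the mean of the 6 members after the mean of each line was removed were *Eef1d* (r = 0.97), *Casq1* (0.95), *Sin3b* (0.95), *Hebp2* (0.95) and *Aldoc* (0.95). Within the 9 libraries of the *Cryaa*-R49C line their correlations were 0.96 to 0.98, and within the 9 of the *Cryab*-R120G line 0.79 to 0.91.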

How the data were processed

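Reads were single and 50 bases long. The authors aligned them with STAR 2.0.4b to GRCm38, counted genes with featureCounts 1.4.5 and deposited raw read counts, which were used here. A deposited table of RPKM, made by the authors from the same reads, served only to recover the gene lengths. The strand setting of the counting is not given in the sources used here. Of 41422 lines, 1 per Ensembl identifier was kept. Genes passing filterByExpr (13938) were scaled with TMM and fitted in 1 model over 18 libraries with edgeR 4.0.16 (R 4.3.3, limma 3.58.1), robust dispersions and quasi-likelihood tests. FDR is the Benjamini-Hochberg value over all genes of a comparison, with a threshold of 0.05. Calculations were tested on simulated data. Log2 CPM used a prior count of 2. The authors kept every gene with a count, and that filter, library size scaling, scaling without crystallins or *Gm42418*, DESeq2 1.42.0, the likelihood-ratio test, own groups alone, replicate blocks and leaving out each library were alternatives. Promoter windows came from RefSeq (6 of 6 members matched by symbol), gene models from GENCODE vM21.

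Groups came from sample titles. The labels number the libraries as separate samples of a group but do not say which animals they came from, so p-values measure the spread between pooled samples. Named were the 6 members, other crystallins past the threshold (otherwise *Cryaa* and *Cryab*), at most 3 regulators per comparison by FDR, the 5 genes most like the family and *Gm42418*. *Lctl*, *Bfsp1* and *Sox2* were named after their values were seen. The members and lists were chosen with earlier results of these data known. Same-numbered *Cryab*-WT and *Cryab*-R120G-homo libraries correlated after group means were removed (r = 0.28, 0.18 and 0.16), so that comparison is also given with the number as a block. *Cryaa* homo and WT had 0.04, 0.16 and 0.15, and *Cryaa* het and WT -0.05, 0.33 and 0.48. Differently numbered libraries were not compared and the labels name no pairs, so a pairing was not established.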

Additional observations from a re-analysis of the deposited data

How the results depend on the processing

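The number of members past the threshold in *Cryaa* homo against WT (1) and against het (1) was 0 and 0 with all counted genes, with library size alone, with only the groups compared and with the replicate block (2.81%, 1.82%, 1.87% and 2.64% of all genes downward against WT, and 2.46%, 1.47%, 1.03% and 1.36% against het); 2 and 3 without *Gm42418* (5.3% and 4.23% of all genes downward); and 4 and 4 with DESeq2 (6.11% and 5.09%) and with the likelihood-ratio test (11.6% and 11.9%), against 4.92% and 3.63%. Leaving out 1 library gave 0 to 4 members in both and 0 to 2 in the line difference. For the WT ages the count of 6 became 1 with library size alone. In *Cryab* homo against WT the block by replicate number changed no member's call and moved the genes called from 7 to 118. In every comparison the libraries share only a number. In the others the block moved the genes called from 1 to 1282 in *Cryaa* het, from 1365 to 634 and from 1160 to 346 in *Cryaa* homo against WT and het, from 1 to 17 in *Cryab* het, from 0 to 16 in *Cryab* homo against het, from 3237 to 2963 for the WT ages and from 406 to 268 in the line difference.

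Library size alone turned the sign of log2 differences to 0.21 (*Cryba2*, *Cryaa* het), 0.36 and 0.49 (*Cryba2* and *Crybb3*, *Cryaa* homo), 0.15 (*Cryba2*, homo against het), 0.08, 0.11, 0.09, 0.04 and 0.10 (*Cryba1*, *Cryba2*, *Cryba4*, *Crybb2* and *Crybb3*, *Cryab* het), 0.20, 0.12, 0.27, 0.15, 0.04 and 0.01 (all 6 in order, *Cryab* homo), 0.12 and 0.01 (*Cryba1* and *Cryba2*, *Cryab* homo against het), and -0.05, -0.47 and -0.04 (*Cryba4*, *Crybb1* and *Crybb3*, WT ages). The likelihood-ratio test gave -0.02 and -0.10 (*Crybb1* and *Crybb2*, *Cryaa* het), all counted genes 0.02 and only the groups compared 0.01 (*Crybb3*, *Cryaa* homo). Leaving out 1 library moved values across 0 in *Cryaa* het (*Cryba1* -0.16 to 0.17, *Cryba2* -0.26 to 0.08, *Cryba4* -0.13 to 0.17, *Crybb1* -0.21 to 0.15, *Crybb2* -0.30 to 0.19), *Cryaa* homo (*Crybb3* -0.26 to 0.17), *Cryaa* homo against het (*Cryba2* -0.22 to 0.14), *Cryab* het (*Cryba2* -0.17 to 0.02, *Crybb3* -0.17 to 0.02), *Cryab* homo against het (*Cryba1* -0.25 to 0.08, *Cryba4* -0.07 to 0.11, *Crybb1* -0.02 to 0.14) and the line difference (*Cryba2* -0.10 to 0.23). The family's share without *Gm42418* was 28.9%, 30.9%, 23.6%, 31.5%, 31.6% and 32.8% (WT, het and homo of the *Cryaa* line, then of the *Cryab* line), and of crystallin counts 45.0%, 46.4%, 45.4%, 38.9%, 38.9% and 40.7% in the same order. The cause was not tested.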
